A study of Drosophila melanogaster with 6 samples.

Results

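Antisense RNAs are noncoding transcripts made from the strand opposite another gene. The 66 described here are the Drosophila melanogaster genes whose symbol begins with asRNA: and whose raw counts, summed over all 6 libraries, reached 200, leaving out chromosome 4. They were drawn from 500 asRNA genes among 17612 genes in the count table. Of these 500, 72 reached the threshold, 6 of them on chromosome 4, and 97 had no count at all. RIP-seq, in which RNA bound to an immunoprecipitated protein is sequenced, served to find transcripts recovered with Isha, a protein that the study's title describes as binding su(Hw) mRNA. In the Isha RIP group (3 libraries), nuclear extract from embryos of the wild-type strain Oregon R, collected over 0 to 24 h and so of mixed stage, was precleared with preimmune rabbit serum and then incubated with beads carrying rabbit antiserum against Isha (Isha-Rb94). In the input group (3 libraries), RNA of the same kind of extract was sequenced with no antibody. Neither a mutant nor a control immunoprecipitation was analysed, and binding to Isha cannot be told apart from binding to beads or serum.

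Natural antisense transcripts can start near the promoter of the opposite gene, run into its 3′ end, or lie within it. Where both transcripts are present in the same cell they can pair into double-stranded RNA, which Dicer-2 cuts into small interfering RNAs and Adar edits. Transcription through a gene from the opposite strand can also change its expression or splicing in some cases. Most fly asRNA genes carry only an identifier, and the role of the gene on the opposite strand is usually better known than that of the antisense RNA.

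Libraries held 8386414 to 14342543 counts in Isha RIP and 29344529 to 31680173 in input. The unit of level is CPM, a gene's count divided by the TMM-normalised size of its library. Without the TMM factors, which were 0.987 to 1.01, a count of 1 was worth 0.0697 to 0.119 CPM in RIP. In input it was worth 0.0316 to 0.0341 CPM. All 12 embryonic marker genes examined were measured, at 3.04 (vas) to 395 CPM (Mef2) in RIP and 5.16 to 281 CPM in input. Adult or larval genes were at or under 1.5 CPM in RIP and 0.361 CPM in input (ninaE, Yp1, Yp2, SP, Sgs3). Whether libraries of 1 group stem from separate embryo collections is not stated in the labels, and the p-values below measure only the spread between libraries, which may be technical. In such a whole-embryo extract, few cells with much of an RNA and many cells with little of it cannot be told apart.

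Whether the counts keep the strands apart decides how antisense RNAs can be read, so it was examined in the table itself. Of 131 genes whose every exon base lies under exons of 1 opposite-strand gene, 101 had counts (77.1%), and 46 were counted higher than the gene that covers them (35.1%). Of 324 genes covered in the same way by a gene on their own strand, 0 had a count. Reads were therefore assigned by strand, and reads shared by 2 genes of the same strand were left out. Among the 66 antisense RNAs, 12 share exon bases with a gene on their own strand, and reads in those bases are missing from their counts. How often the library preparation turned a read's strand was not tested. The lowest level set against the opposite gene was that of asRNA:CR45874, which ran opposite the ribosomal protein gene RpS9 and reached 0.177% of its level per base in RIP and 0.0952% in input.

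The antisense RNAs made up a small part of the libraries. Together they took 0.0519% ± 0.00053 (SD, n = 3) of all counts in Isha RIP and 0.0365% ± 0.00149 in input. The share was 0.0522%, 0.0513% and 0.0523% in the RIP libraries, against 0.0382%, 0.0359% and 0.0354% in the input libraries, and the groups did not overlap. Mean levels per gene ran from 0.577 to 43 CPM in RIP, with a median of 5.06, and from 1.31 to 41 CPM in input, with a median of 3.71. The summed counts that chose the genes ran from 205 to 5018, and the deeper input libraries supplied 28.7% to 95.6% of a gene's sum (median 68.9%), so the rule favours RNAs that are well represented in input. The coefficient of variation between libraries had a median of 29.0% in RIP and 20.1% in input. Summed exon length ran from 351 to 7886 bases, and 25 of the 66 had 1 exon.

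By CPM, asRNA:CR46194, which overlaps the 3′ end of the Sm core protein gene SmD3, was the most counted. It was measured at 34.0, 35.8 and 45.1 CPM in the RIP libraries, against 48.7, 37.2 and 37.1 CPM in the input libraries. The groups overlapped, and the RNA was not called (log2 fold change -0.09, standard error (SE) 0.14, adjusted p = 0.604, edgeR), and 362 of its exon bases are shared with a gene on its own strand. Per kilobase of exon, asRNA:CR45828 was highest in RIP, at 28.6 CPM per kb against 8.97 in input, and asRNA:CR44176 was at 25.6 in RIP and 10.6 in input. asRNA:CR46194 was at 17.8 CPM per kb in RIP and 19.1 in input. The median over the 12 X-linked antisense RNAs was 6.21 CPM in RIP and 4.17 CPM in input, and over the 15 on 3R it was 5.04 and 3.43 CPM.

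The first comparison asked which antisense RNAs were recovered with Isha above or below their level in input. All 66 passed the filter on low counts. Of these, 22 were enriched (33.3%) and 7 were depleted (10.6%) in Isha RIP (edgeR's quasi-likelihood test, adjusted p below 0.05), and 37 did not pass. Among all 11764 tested genes, 27.0% were enriched and 30.4% were depleted. Among the 6117 tested genes with summed counts in the range of the antisense RNAs, 20.6% were enriched and 31.6% were depleted. With all 6 libraries, the enriched share of the antisense RNAs lay above both backgrounds and the depleted share below both. The median log2 fold change was 0.40 for the antisense RNAs and -0.05 for all tested genes, and 39 of the 66 lay above 0 (background 47.6%). Every RIP library lay above every input library for 26 antisense RNAs (background 30.0%, and 23.5% in their count range) and below it for 11 (34.0% and 36.3%). Leaving out input replicate 1 reduced the antisense RNAs called to 16 enriched and 3 depleted. Leaving out RIP replicate 3 reduced them to 16 and 5. The shares of all genes in these fits are not given here, so the comparison with the backgrounds holds for all 6 libraries only.

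**Figure D1:**
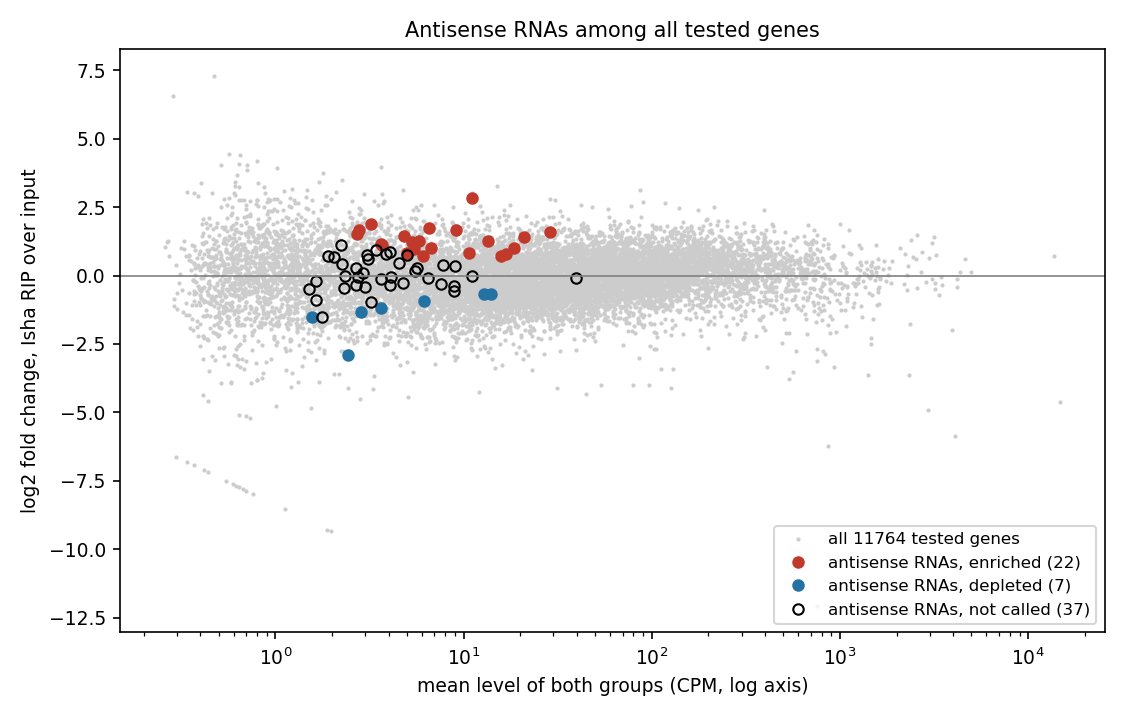
Mean level of both groups (CPM, log axis) against the log2 fold change of Isha RIP over input for all 11764 tested genes (grey) and the 66 antisense RNAs (22 enriched, red; 7 depleted, blue; 37 not called, open circles). The antisense RNAs lie at the low end of the level axis, and most of those called lie above 0.

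The largest rise was that of asRNA:CR43933, a spliced RNA of 3 exons on chromosome 3L from 21496393 to 21498830 on the plus strand (dm6), opposite the 5′ part of the nuclear hormone receptor gene Hr78. A further gene, Glg1, also lies opposite this RNA. asRNA:CR43933 stood at 16.0, 22.8 and 19.4 CPM in the RIP libraries, against 1.68, 3.5 and 2.95 CPM in the input libraries. The lowest RIP library lay far above the highest input library. The difference was 7.15-fold (log2 fold change 2.84, SE 0.27, adjusted p = 5.19e-09, edgeR). asRNA:CR46354 is encoded on the minus strand of 3R, from 13459671 to 13466106, and meets the 3′ end of side-IV, a gene of the sidestep family of cell-surface proteins. Its level was 37.5, 44.5 and 47 CPM in RIP, against 16.3, 12.6 and 14.4 CPM in input. The groups lay well apart, with a 2.98-fold difference (log2 fold change 1.58, SE 0.15, adjusted p = 2.97e-09, edgeR). Its exons share 400 bases with those of another antisense RNA of the same strand, asRNA:CR17025, which was at 2.37 CPM ± 0.427 in RIP and 1.43 CPM ± 0.547 in input (SD, n = 3) and was not called.

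Further rises were spread over the chromosome arms. asRNA:CR45185 lies within the chitinase gene Cht6 on the X chromosome (from 10044909 to 10048156) and was measured at 33.9, 29.0 and 28.1 CPM in RIP, against 13.3, 11.4 and 9.69 CPM in input. It was enriched 2.64-fold (log2 fold change 1.40, SE 0.17). asRNA:CR44176, on 3R from 14421751 to 14422549, meets the 3′ end of natalisin, which encodes a neuropeptide precursor. Its level was 18.8, 21.3 and 17.1 CPM in RIP, against 10.4, 7.28 and 5.94 CPM in input (log2 fold change 1.27, SE 0.22). asRNA:CR45828 is covered over all its 488 bases by an opposite antisense RNA, asRNA:CR45827, which had 0 counts in each of the 6 libraries. Part of asRNA:CR45827 coincides with an exon of SCOT on the same strand, where shared reads are left out, so this 0 does not show that the RNA was absent. SCOT thus also lies opposite asRNA:CR45828. The partner was asRNA:CR45827, which has the longest exon overlap, so asRNA:CR45828 is not among the pairs tested below. The level of asRNA:CR45828 was 17.4, 10.1 and 14.4 CPM in RIP, against 3.38, 4.7 and 5.05 CPM in input, a 3.19-fold difference. asRNA:CR45143 overlaps the 5′ part of fusilli (fus), which encodes an RNA-binding splicing regulator, and was measured at 6.46, 10.5 and 7.61 CPM in RIP, against 3.64, 3.57 and 3.05 CPM in input. In each of these 4 the groups did not overlap. asRNA:CR45600, which spans CG3984, was enriched at a log2 fold change of 1.01 (SE 0.18) and asRNA:CR43629, which lies within CG31522, at 0.73 (SE 0.21), a call lost without RIP replicate 1 (0.48).

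Among the less counted antisense RNAs, asRNA:CR46487 had a log2 fold change of 1.88, asRNA:CR46484 of 1.73, asRNA:CR45620 of 1.51, asRNA:CR46104 of 1.44, asRNA:CR45912 of 1.23 and asRNA:CR46135 of 1.16, all enriched with no overlap of the groups. asRNA:TS15 (1.67) and asRNA:CR44996 (1.00) were called although the groups overlapped, and asRNA:TS15 was not called without RIP replicate 2 (1.02) or input replicate 2 (1.49). Nor was asRNA:TS15 called with the replicate number as a block (1.45). The call of asRNA:CR44996 was lost without RIP replicate 1 or 3 or input replicate 1 or 3 (0.82 to 0.88). asRNA:CR46484 lies opposite CG11396, Six4 and Pcif1 and was at 10.1 CPM ± 3.64 in RIP and 3 CPM ± 0.415 in input (SD, n = 3). asRNA:bsAS, singled out after its values were seen because it lies in an intron of blistered (bs), the fly serum response factor gene, was measured at 8.5, 6.03 and 8.24 CPM in RIP and 4.74, 3.71 and 5.43 CPM in input. It was enriched with a log2 fold change of 0.72 and an adjusted p of 0.0435 (edgeR), near the threshold. This call was lost in 8 of 12 alternative fits, among them the fits without any single library other than RIP replicate 2 (0.58 to 0.85). Of the 22 enriched antisense RNAs, 16 changed at least 2-fold and 12 were called in each of the 12 alternative fits. The call of asRNA:CR46487 was lost without RIP replicate 3 (1.56), that of asRNA:CR45620 without RIP replicate 3 or input replicate 1 or 3 (1.35, 1.24 and 1.29), and that of asRNA:CR46135 without RIP replicate 1 or input replicate 1 or 2 (0.73, 1.16 and 1.06). With the replicate number as a block, asRNA:CR46135 was not called either (1.09).

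**Figure D2:**
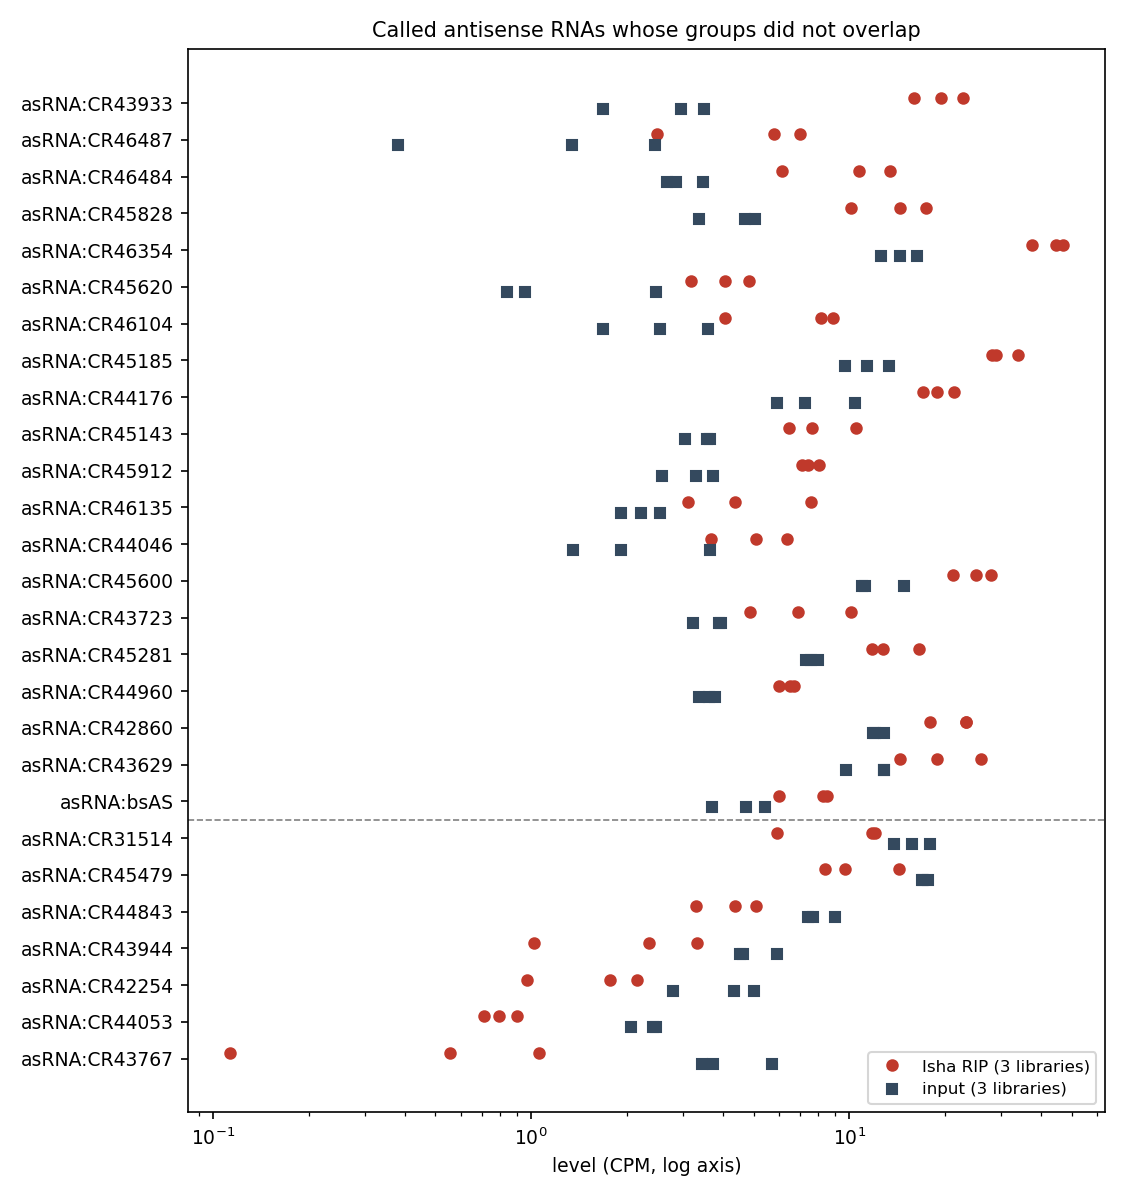
Level in each library (CPM, log axis) of the called antisense RNAs whose groups did not overlap, ordered by log2 fold change, with 3 Isha RIP libraries (red circles) above 3 input libraries (dark squares) in each row. Rows above the dashed line were enriched and rows below it were depleted; asRNA:CR43933 in the top row lies at 16.0 to 22.8 CPM in RIP and 1.68 to 3.5 CPM in input.

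The 7 depleted antisense RNAs had no overlap between the groups. asRNA:CR43767, which overlaps the 5′ part of Tango14 on chromosome 2L (from 1158576 to 1159355), was measured at 0.113, 1.06 and 0.554 CPM in RIP, against 5.73, 3.74 and 3.43 CPM in input. The RIP values rest on 1, 9 and 8 counts. This was the largest fall (log2 fold change -2.90, SE 0.59, adjusted p = 0.000201, edgeR). asRNA:CR45479, opposite the cytochrome P450 gene Cyp4d14, was the most counted of the depleted antisense RNAs, at 14.3, 9.7 and 8.38 CPM in RIP, against 16.9, 17.1 and 17.7 CPM in input (log2 fold change -0.69, SE 0.21, adjusted p = 0.00728, edgeR). asRNA:CR43767 and asRNA:CR45479 kept their call in each of the 12 alternative fits. asRNA:CR45479 overlaps, on the opposite strand, a further antisense RNA, asRNA:CR44690, which covers the P450 gene Cyp4d2. asRNA:CR44690 was at 11 CPM ± 2.48 in RIP and 11.2 CPM ± 1.41 in input (SD, n = 3), with no difference beyond the spread.

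The other depleted antisense RNAs were asRNA:CR44053 (log2 fold change -1.51), opposite the pickpocket channel gene ppk28, asRNA:CR42254 (-1.34), opposite the insulator gene BEAF-32, asRNA:CR43944 (-1.17), opposite the pantothenate kinase gene fbl, asRNA:CR44843 (-0.92), which covers the neuropeptide gene Lk, and asRNA:CR31514 (-0.66), opposite CG12947. asRNA:CR44053 was measured at 0.793, 0.71 and 0.9 CPM in RIP, against 2.42, 2.47 and 2.06 CPM in input, and lost its call in each fit without a single library (-1.62 to -1.44). In all, its call was lost in 9 of 12 alternative fits, also with the replicate number as a block (-1.51). asRNA:CR43944 was measured at 1.02, 3.31 and 2.35 CPM in RIP, against 5.93, 4.53 and 4.64 CPM in input. Its call was lost without RIP replicate 1 (-0.85) or input replicate 1 (-1.04) and after thinning to equal depth (-1.0). asRNA:CR31514 lost its call without RIP replicate 2 (-0.41) or input replicate 1 (-0.56), and asRNA:CR44843, which shares 89 exon bases with a gene of its own strand, lost it without input replicate 1 (-0.83). Counts in RIP were low at these levels: without the TMM factor, 3 counts are worth 0.209 to 0.358 CPM in a RIP library. Whether this limited the calls of depletion was not tested. Of all tested genes in the count range of the antisense RNAs, 31.6% were depleted.

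The second comparison set each antisense RNA against the gene on the opposite strand, taken as the opposite-strand gene with the longest exon overlap. The 66 antisense RNAs had 65 such partners, 63 of them protein-coding, since both asRNA:CR46354 and asRNA:CR17025 lie opposite side-IV. In 42 cases there was only 1 gene on the opposite strand. Per base, the median antisense RNA stood at 24.4% of its partner's level in RIP and 19.5% in input. Of the 63 with a measurable partner in each group, 12 were above it per base in RIP and 10 in input. Of 60 partners tested, 16 were enriched (26.7%) and 18 were depleted (30.0%), with a median log2 fold change of -0.11, against 27.0% and 30.4% of all genes. Across the 61 pairs, Pearson's r between the log2 fold change of the antisense RNA and that of its partner was 0.17 and Spearman's rho was 0.06. This is a description across genes measured in the same libraries.

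The difference between the log2 fold changes of the strands was tested within libraries for 61 pairs, along with all other opposite-strand pairs of tested genes (2212 pairs). This difference does not depend on the scaling between libraries. The antisense RNA was more enriched than its partner in 18 pairs and less enriched in 5 (edgeR quasi-likelihood test of the interaction), and 38 pairs did not pass. Among all pairs, with the shorter gene set against the longer outside the antisense RNAs, 17.5% and 23.7% were called in these directions. This split of the other pairs, and their median difference, depend on that orientation. In either direction 41.1% of all pairs were called, near the share among the antisense RNAs (18 and 5 of 61). The median difference was 0.69 on the log2 scale for the antisense RNAs and -0.14 for all pairs, and the antisense RNA was the higher of the 2 in 44 of 61 pairs. Of the 18 pairs called upwards, 9 came from the 18 with a depleted partner and 2 from the 16 with an enriched one. The other 7 came from the 27 with a partner not called. A depleted partner raises the difference by definition, so these counts are no result about the antisense RNAs. The count of 5 was 3 without RIP replicate 2 or input replicate 3, 2 without input replicate 1 or 2, and 3 with the partner of highest level in place of that with the longest overlap.

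In some of these pairs only the antisense RNA was called. For asRNA:CR43933 the difference from Hr78 was 2.70 on the log2 scale (SE 0.29, adjusted p = 0.000469, edgeR). Hr78 was measured at 144, 160 and 149 CPM in RIP, against 141, 142 and 125 CPM in input, and was not called (log2 fold change 0.15). The antisense RNA thus stood at 24.1% of Hr78 per base in RIP and 3.75% in input. Glg1 also lies opposite asRNA:CR43933, and Hr78 was taken for its longer exon overlap (443 bases). For asRNA:CR46354 the difference from side-IV was 1.69 (SE 0.18, adjusted p = 0.000481, edgeR). side-IV was measured at 145, 139 and 135 CPM in RIP, against 152, 152 and 147 CPM in input. For asRNA:CR45143 the difference from fus was 1.22, and fus itself was at 256 CPM ± 4.24 in RIP and 252 CPM ± 8.72 in input (SD, n = 3). For asRNA:CR44176 the difference from natalisin was 1.85, with natalisin at 1.8 CPM ± 0.611 in RIP and 2.53 CPM ± 0.123 in input. asRNA:CR44176 was thus the more abundant strand per base in both groups.

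In other pairs the partner was depleted. The largest difference, 3.28 on the log2 scale (SE 0.48, adjusted p = 0.00169, edgeR), was that of asRNA:CR44960 and CG33178. asRNA:CR44960 was at 6.01, 6.5 and 6.71 CPM in RIP, against 3.61, 3.36 and 3.78 CPM in input, and CG33178 was at 1.18 CPM ± 0.0694 in RIP and 6.43 CPM ± 0.927 in input (SD, n = 3). Neither strand overlapped between groups, but CG33178 rests on 10 to 16 counts in a RIP library. The enrichment of asRNA:CR44960 taken alone was lost without RIP replicate 3 or any input replicate (0.79 to 0.88). It was also lost with the replicate number as a block (0.84) and after thinning to equal depth (0.81). asRNA:CR45281, a single exon that runs across the alkaline phosphatase gene Alp6 on 2R, was measured at 12.8, 16.6 and 11.8 CPM in RIP, against 7.31, 7.58 and 8.0 CPM in input. Alp6 was measured at 18.1, 14.7 and 18.4 CPM in RIP, against 47.8, 48.8 and 49.1 CPM in input. The strands were called in opposite directions (0.84 for the antisense RNA and -1.50 for Alp6), and their difference was 2.34 (SE 0.27, adjusted p = 0.000629, edgeR). The same held for asRNA:CR46104, which meets the 3′ end of Gfat2, a gene of the first step of the hexosamine pathway. The antisense RNA was at 4.08, 8.16 and 8.86 CPM in RIP, against 2.54, 3.6 and 1.68 CPM in input, while Gfat2 was at 14.0, 13.2 and 13.2 CPM in RIP, against 44.7, 40.4 and 45.6 CPM in input. Their difference was 3.13 (SE 0.45). asRNA:CR46135 covers Atu, the fly counterpart of the Paf1 complex protein Leo1, which was depleted at a log2 fold change of -0.43, and the difference was 1.52.

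In 4 of the 18 pairs with the antisense RNA more enriched, the difference was called although the antisense RNA alone was not. asRNA:CR45485, opposite Had1, was at 6.17 CPM ± 2.39 in RIP and 5.09 CPM ± 1.53 in input (SD, n = 3), whereas Had1 was at 11.8 CPM ± 1.3 in RIP and 51.2 CPM ± 4.61 in input, a difference of 2.37. asRNA:CR44368 differed from CG18324 by 1.64, asRNA:CR45999 from CG9855 by 1.48, and asRNA:CR44119 from SLC5A11 by 1.27. The call of the pair of asRNA:CR44368 was lost without any single library (1.26 to 1.9), and that of asRNA:CR45999 without input replicate 1 (1.44) or 2 (1.35). That of asRNA:CR44119 was lost without RIP replicate 1 or 3 or any input replicate (1.02 to 1.31) and by limma (1.22 and 1.23). After thinning to equal depth the pairs of asRNA:CR44368 (1.56) and asRNA:CR44119 (0.95) were not called either. Within sallimus (sls), which encodes a giant titin-like muscle scaffold, asRNA:CR42860 was measured at 23.3, 23.3 and 17.9 CPM in RIP, against 12.9, 12.0 and 11.9 CPM in input. sls was at 1111 CPM ± 56.5 in RIP and 1034 CPM ± 5.88 in input (log2 fold change 0.10, enriched), and the difference was 0.69. Of the 18 pairs, 11 were called in each of 9 alternative fits.

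**Figure D3:**
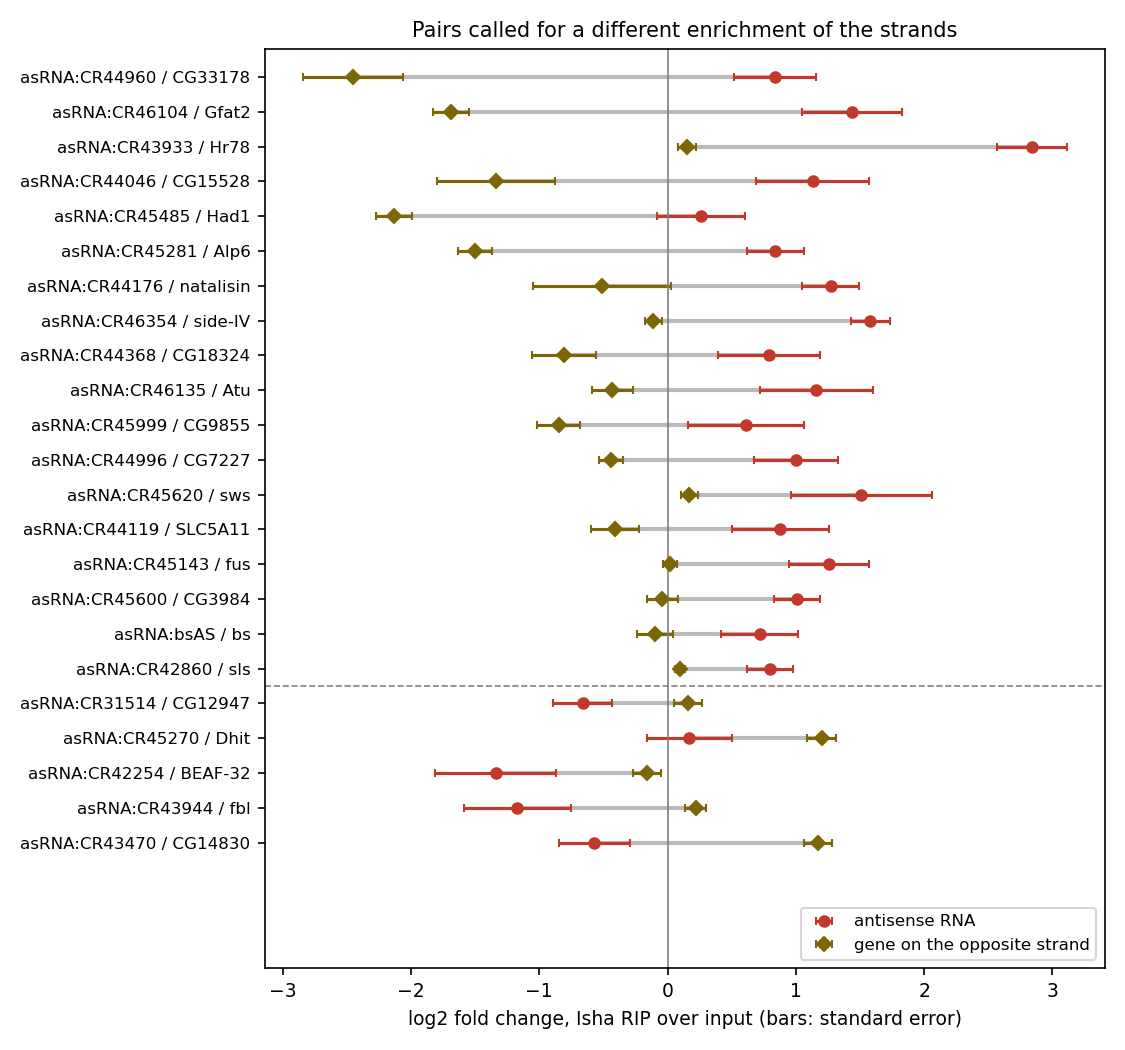
Log2 fold change of Isha RIP over input (bars, standard error) of the antisense RNA (red circles) and of the gene on the opposite strand (brown diamonds) in the 23 pairs called for their difference. In the 18 pairs above the dashed line the antisense RNA lies to the right of its partner, for example at 2.84 against 0.15 for asRNA:CR43933 and Hr78; in the 5 below it lies to the left.

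In 5 pairs the antisense RNA was less enriched than its partner. asRNA:CR43470 and asRNA:CR45270 were themselves not called. asRNA:CR43470, which meets the 3′ end of CG14830, was measured at 4.31, 9.46 and 7.68 CPM in RIP, against 11, 12.8 and 8.13 CPM in input. CG14830 was enriched, at 92.1, 109 and 77.7 CPM in RIP, against 45.2, 37 and 41.2 CPM in input. The difference was -1.75 (SE 0.34, adjusted p = 0.00535, edgeR), and this pair was called in each of 9 alternative fits. asRNA:CR43944 differed from fbl by -1.39 and asRNA:CR45270 from Dhit, a regulator of G protein signalling, by -1.04. asRNA:CR31514 differed from CG12947 by -0.86. The fbl pair was lost without input replicate 1 (-1.3), the Dhit pair without RIP replicate 2 or 3 or input replicate 1 or 2 (-0.97 to -0.85), and the CG12947 pair without RIP replicate 2 (-0.6) or any input replicate (-0.93 to -0.82).

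Of the insulator, Hox and double-stranded RNA genes listed for this comparison, only BEAF-32 lay opposite one of the 66 antisense RNAs. asRNA:CR42254, on 2R, overlaps the 5′ part of BEAF-32 and was measured at 2.15, 1.77 and 0.969 CPM in RIP, against 2.8, 5.01 and 4.35 CPM in input. BEAF-32 was measured at 40.6, 38.4 and 39 CPM in RIP, against 44, 43.6 and 44.4 CPM in input, and was not called (log2 fold change -0.16). The difference was -1.19 (SE 0.38, adjusted p = 0.0384, edgeR). It was not called without RIP replicate 2 or 3 (-1.29 and -0.86), without input replicate 2 or 3 (-1.0 and -1.12) or by limma (-1.17 and -1.13). The call of the antisense RNA itself was lost without RIP replicate 3 (-1.05), input replicate 2 (-1.15) or input replicate 3 (-1.28). It was also lost after thinning to equal depth (-1.16).

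**Figure D4:**
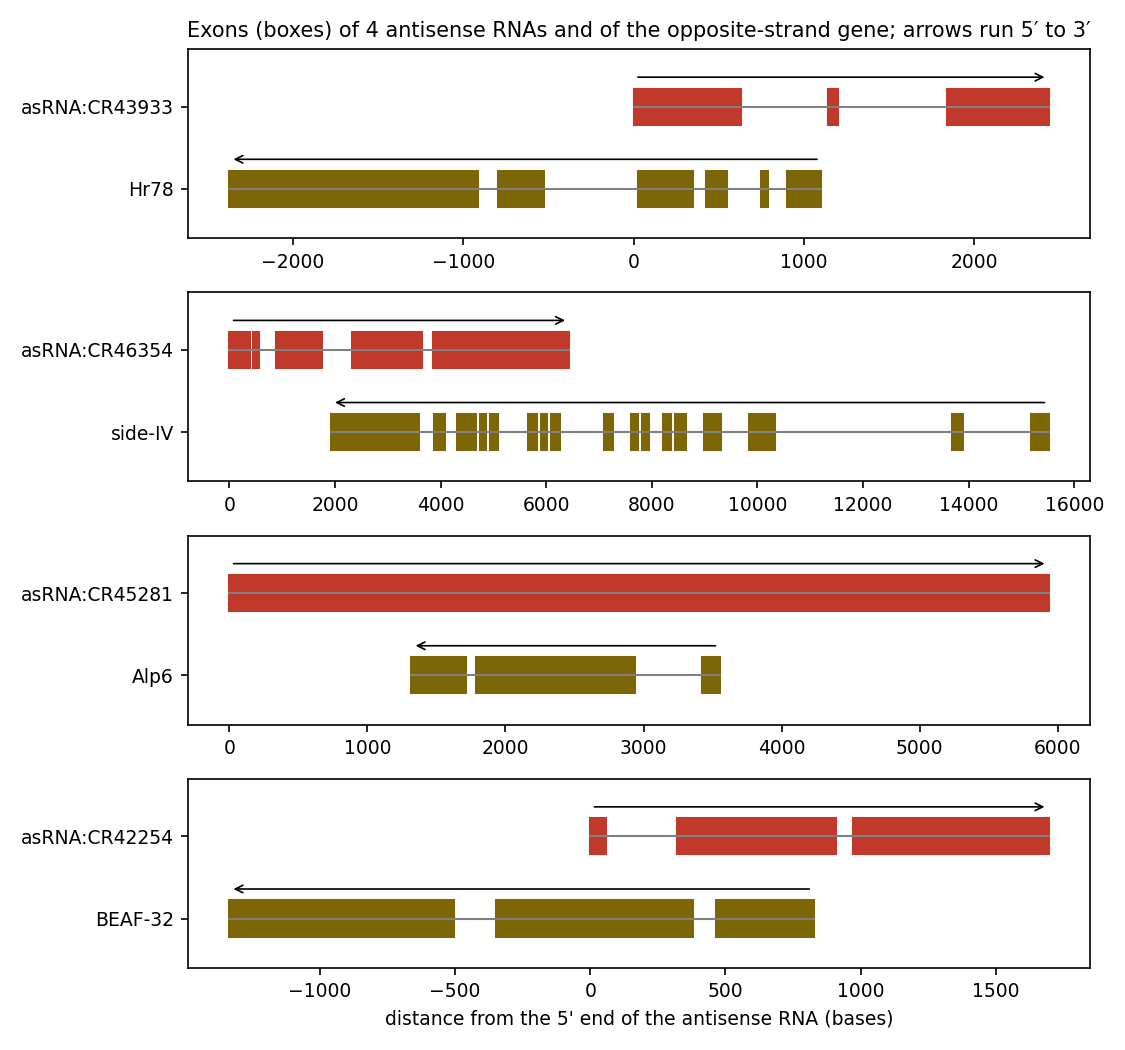
Exons of 4 antisense RNAs (red) and of the gene on the opposite strand (brown), with distance in bases from the 5′ end of the antisense RNA on the horizontal axis and arrows running 5′ to 3′. asRNA:CR43933 and asRNA:CR42254 overlap the 5′ part of Hr78 and BEAF-32, asRNA:CR46354 runs into the 3′ part of side-IV, and asRNA:CR45281 spans Alp6. Glg1, also opposite asRNA:CR43933, and Or45b, also opposite asRNA:CR45281, are not drawn.

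Other pairs did not pass the test. asRNA:CR45185 and Cht6 were both enriched, Cht6 at 1189 CPM ± 15.6 in RIP and 531 CPM ± 28.2 in input (SD, n = 3), and their difference was 0.24 (SE 0.18, adjusted p = 0.328, edgeR). asRNA:CR43767 and Tango14 were both depleted, Tango14 at 16.4 CPM ± 5.56 in RIP and 74.6 CPM ± 3.97 in input, with a difference of -0.69 (SE 0.64). asRNA:CR45129, which lies within the axon guidance gene Dscam1, had a difference of 0.08 (SE 0.30). Of the 22 enriched antisense RNAs, 6 lay opposite an enriched partner and 6 opposite a depleted one. Of the 7 depleted, 1 lay opposite an enriched partner and 1 opposite a depleted one. On simulated counts the test of pairs recovered 17% of 2-fold and 56% of 4-fold differences. Far fewer pairs were changed there than were called in the data, so these rates do not carry over to the antisense RNAs. A pair that was not called may still differ.

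Position relative to the partner was described by the overlap of the gene spans, and its counts are to be read against all tested genes (27.0% enriched, 30.4% depleted) and those in the same count range (20.6% and 31.6%). The 16 antisense RNAs that met their partner tail to tail had a median log2 fold change of 0.67, with 4 enriched and 0 depleted (edgeR). The 17 that lay inside the partner had a median of 0.72, with 8 enriched and 1 depleted. The 20 that met the partner head to head had a median of 0.04, with 6 enriched and 4 depleted, and the 13 that enclosed the partner had a median of -0.03, with 4 enriched and 2 depleted. Of the 21 antisense RNAs with under 50% of their exon bases beneath opposite exons, 13 were enriched (61.9%) and 2 were depleted. Of the 45 with 50% or more, 9 were enriched (20.0%, near the 20.6% of genes in the same count range) and 5 were depleted. The median log2 fold change was 0.84 in the less covered class and 0.17 in the more covered one. Their median levels were 5.48 and 4.07 CPM, and 15 of the 28 antisense RNAs of at least 5 CPM were enriched against 7 of 38 below that level. The part of level in these counts was not tested. Across the 66, Pearson's r of the log2 fold change was -0.31 with the share of exon bases under opposite exons, 0.31 with the log2 level and -0.01 with log2 exon length (Spearman's rho -0.27, 0.30 and -0.05). These are descriptions across genes that share libraries.

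**Figure D5:**
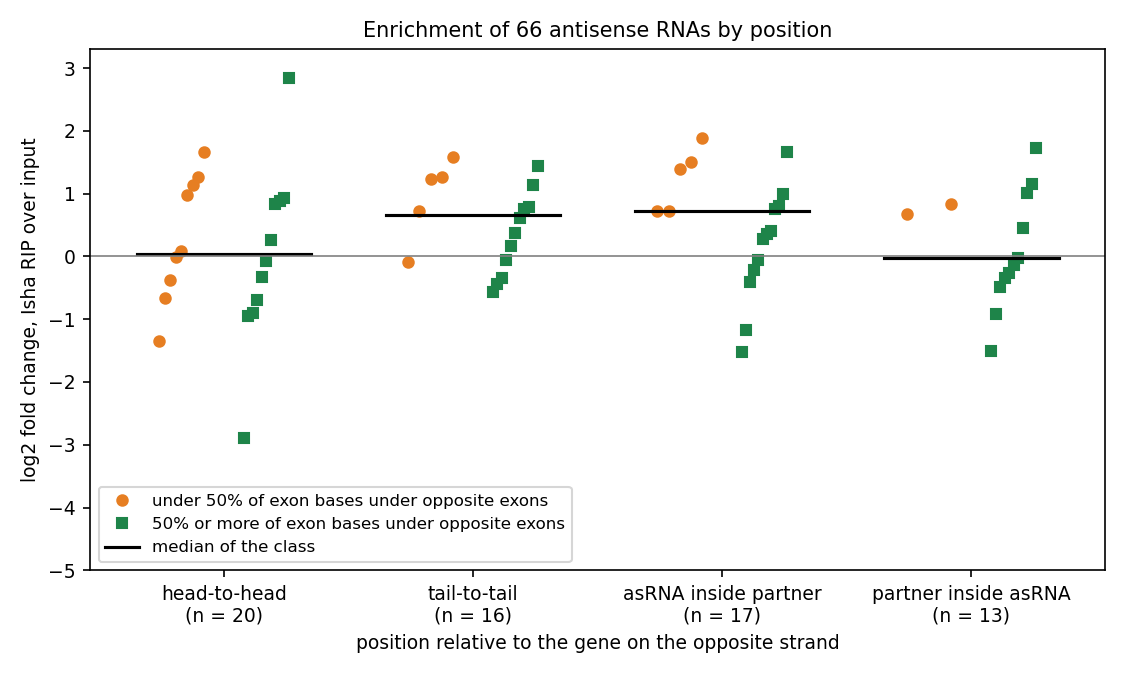
Log2 fold change of Isha RIP over input for the 66 antisense RNAs, in 4 classes of position relative to the gene on the opposite strand, with orange circles for under 50% and green squares for 50% or more of exon bases under opposite exons, and class medians as black lines. Medians are 0.04 for head-to-head, 0.67 for tail-to-tail, 0.72 for antisense RNAs inside the partner and -0.03 for those that enclose it.

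The antisense RNAs were set beside other noncoding RNAs chosen by the same count threshold. Of the 66, 22 were enriched (33.3%), against 108 of 199 genes with lncRNA: symbols (54.3%), and 7 were depleted (10.6%), against 7 of the lncRNA genes (3.52%). Median log2 fold changes were 0.40 for antisense RNAs and 0.90 for the lncRNA genes. The difference between these classes was not tested. Protein-coding genes whose exons overlap no other gene had a median of -0.06, with 28.3% enriched and 30.9% depleted. The 6 antisense RNAs of chromosome 4 that reached the count threshold had log2 fold changes of -0.20 to 1.85. Of these 6, 3 were enriched (50.0%) and 0 depleted, against 27.0% and 30.4% of all tested genes. The shares rest on 6 genes only. Among the enriched was asRNA:CR44029, at 21.1 CPM in RIP and 6.08 CPM in input.

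Genes of proteins that act on double-stranded or aberrant nuclear RNA were called in both directions. Of 18, 4 were enriched (22.2%) and 9 were depleted (50.0%), against 27.0% and 30.4% of all tested genes, with a median log2 fold change of -0.36. Adar, which edits double-stranded RNA, was at 142 CPM ± 11.3 in RIP and 86.6 CPM ± 2.96 in input (SD, n = 3), a log2 fold change of 0.72. AGO2, which carries small interfering RNAs, was enriched at 0.51, and Dcr-2, which makes them, was at 49.4 CPM ± 1.51 in RIP and 47.3 CPM ± 2.04 in input and was not called (0.06). Of the nuclear exosome and its cofactors, the exonuclease gene Rrp6 was at 61.3 CPM ± 5.67 in RIP and 36.8 CPM ± 3.57 in input and was enriched (0.74), as was Rrp45 (0.37). Dis3 (-0.69), Rrp4 (-1.69), Csl4 (-1.42), Rrp40 (-0.67), Rrp46 (-0.65), Ski6 (-0.52) and the helicase gene Mtr4 (-1.12) were depleted. The remaining depleted genes were loqs (-0.76), which encodes a Dicer partner, and mle (-0.26), an RNA helicase gene of dosage compensation.

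The count threshold cut through a continuous range. Just inside it were asRNA:CR45874, asRNA:CR17025 and asRNA:CR46485, with summed counts of 205, 208 and 209. asRNA:CR45874 was at 1.53 CPM ± 0.928 in RIP and 1.75 CPM ± 0.383 in input, and asRNA:CR46485 at 1.24 CPM ± 0.587 in RIP and 1.77 CPM ± 1.52 in input (SD, n = 3). Just outside were asRNA:CR45164, asRNA:CR44018 and asRNA:CR44367, with 193, 197 and 198 counts. asRNA:CR45164 was at 2.69 CPM ± 0.999 in RIP and 1.12 CPM ± 0.633 in input, asRNA:CR44018 at 2.77 CPM ± 0.668 in RIP and 1.15 CPM ± 0.197 in input, and asRNA:CR44367 at 0.711 CPM ± 0.727 in RIP and 1.89 CPM ± 1.06 in input.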

How the data were processed

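For the 6 libraries the authors deposited raw counts of reads by gene. Per the submitters' processing notes, the tools were cutadapt 2.9, HISAT2 2.2.1, Picard 2.22.2, featureCounts of Subread 2.0.0, and DESeq2 1.32.0 in R 4.1.0, with genome build dm6. Their settings were not given in those notes. Reads were single-end, of 50 bp, per the labels' protocols. Totals per library ran from 8386414 to 31680173 counts.

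Symbols were assigned through the RefSeq gene table of dm6, for 17159 genes by coordinates and for 16 by identifier, and 437 of 17612 had no match of their own. All 500 asRNA genes matched by coordinates. The partner of an antisense RNA was the opposite-strand gene with the longest exon overlap, or, without one, the longest overlap of spans. Genes were kept with edgeR's filterByExpr (minimum count 10), scaled by TMM, and tested with the quasi-likelihood test of edgeR 4.0.16 (R 4.3.3) over all 11764 kept genes, with Benjamini-Hochberg adjustment and a threshold of 0.05. Differences between strands were tested as the interaction of strand and group for 2212 opposite-strand pairs, and adjusted over all of them. On simulated counts, 63.3%, 74% and 89.4% of genes changed by 1.5, 2 and 4-fold were recovered, and for pairs 17% and 56% of 2 and 4-fold differences. Each rate rests on 47 to 53 changed genes or pairs of any level. Far more were called in the data, so these rates do not carry over to the antisense RNAs.

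Antisense RNAs were named in the text where they were among the 12 highest by mean CPM, the 12 largest rises and up to 8 largest falls among called antisense RNAs whose groups did not overlap (7 such falls), up to 8 called pairs each way with a partner of at least 5 CPM and the largest differences (5 with the antisense RNA less enriched), opposite a listed gene, or nearest the count threshold; asRNA:bsAS, asRNA:CR44960, asRNA:TS15, asRNA:CR44996, asRNA:CR44119 and asRNA:CR45129 were named after their values were seen. The members and lists were chosen with earlier results of these data known. Alternatives were DESeq2 1.42.0, RLE size factors, other count filters, a replicate block, thinning to equal depth, limma 3.58.1 for pairs, another partner rule and leaving out each library. Counts have no molecular identifiers, so their sampling error is only part of the error.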

Additional observations from a re-analysis of the deposited data

How the results depend on the processing

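Between 16 and 24 antisense RNAs were enriched under the alternative fits, filters and member thresholds run, except that 1 was enriched and 0 depleted when members were restricted to those with no exon overlap, a class of 1 RNA. Leaving out 1 library at a time gave 16 to 22 enriched and 3 to 7 depleted antisense RNAs (3 without input replicate 1). It gave 12 to 18 pairs with the antisense RNA more enriched and 2 to 6 with it less enriched. Choosing the opposite-strand gene of highest level gave 22 and 3. Leaving out antisense RNAs under 5% of their partner per base, an alternative chosen after seeing the data, gave 19 enriched and 6 depleted, and 15 and 4 pairs. With the replicate number as a block, 18 were enriched and 7 depleted, and the calls of asRNA:TS15 (1.45), asRNA:CR46135 (1.09), asRNA:CR44960 (0.84), asRNA:bsAS (0.71) and asRNA:CR44053 (-1.51) were lost. Libraries of the same number did not deviate together (r of -0.00953, -0.0289 and -0.0363 over 7721 genes). No RIP library correlated best with the input library of its own number. All r between RIP and input libraries lay near 0 (-0.0363 to 0.0317). Such values show no shared deviation, but they cannot decide whether libraries of 1 number came from the same extract.

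Of 853 values for single antisense RNAs and pairs under alternatives, 720 kept direction and call, 106 lost the call, 13 gained it and 14 changed sign. asRNA:CR44690 turned to 0.02 with DESeq2 and with RLE size factors, 0.01 with the strict filter and 0.03 after thinning. With 1 library left out, it ran from -0.14 to 0.14, asRNA:CR46194 from -0.24 to 0.05, asRNA:CR45485 from -0.09 to 0.48, asRNA:CR45270 from -0.11 to 0.37, asRNA:CR45874 from -0.81 to 0.04, asRNA:CR46485 from -1.0 to 0.29, and the difference of asRNA:CR46487 and CG17684 from -0.43 to 0.92. None of these values was called with all libraries. The cause was not tested. The RIP libraries held fewer counts than the input libraries, and whether this limited calls of low antisense RNAs was not tested.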
